A study of Mus musculus with 48 samples.

Results

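Junctions from the Jκ1 signal end were compared between 3 Ku70-/- and 3 WT libraries of v-Abl transformed mouse pro-B cells that had received STI-571 (3 μM, 96 h) together with L82-G17 (25 μM). All libraries that the labels put under this treatment and bait were used, 6 of the 48 in the series, of which 24 carry the signal end bait. STI-571 (imatinib) blocks the Abl kinase, arrests these cells in G0-G1 and turns on RAG1/2, and L82-G17 is an inhibitor of DNA ligase I. Other cells of both genotypes received STI-571 with DMSO, or STI-571 with L67 (5 μM), an inhibitor of DNA ligases I and III, in 3 libraries each, and cycling cells of both genotypes, without STI-571 or inhibitor, gave 3 more libraries each. The study's methods name a single clone for each genotype, and the Ku70-/- cells lack exons of Ku70, so that loss of Ku70 and other differences between the clones cannot be told apart. The study's legends state independent repeats for its experiments but do not name L82-G17, and the labels do not say whether the 3 libraries of a group came from separate cultures, so that p-values measure only the spread between these libraries, which may be technical. The junction lists hold no RNA levels, so that neither the cell type nor the loss of Ku70 could be read from them.

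In V(D)J recombination RAG1/2 cuts between a coding segment and its recombination signal sequence, a heptamer and a nonamer held apart by a spacer, and leaves a hairpin coding end and a blunt signal end. Classical NHEJ, in which the Ku70/Ku80 heterodimer binds the broken ends and DNA ligase IV seals them, joins signal end to signal end (SE-SE) and coding end to coding end. A hybrid joint fuses the signal end of one segment to the coding end of the other. Cells without Ku rely on alternative end joining (A-EJ), which is known for resected ends and for joints at short stretches of shared sequence (microhomology, MH), and whose final step is attributed to DNA ligases I and III. For arrested Ku70-/- cells of this kind the study reports mostly direct joints, with less reliance on MH than in cycling cells. It also reports that ligase I protein was almost gone by 96 h of STI-571, and proposes ligase III as the main A-EJ ligase there.

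The signal sequences behind the results are shown from the RAG1/2 cut outward, 5′ to 3′, with the heptamer and the nonamer in capitals (mm9, chromosome 6). The bait signal has a spacer of 23 bp and its partners a spacer of 12 bp. Igkv1-135 and Igkv12-44 were the most used deletional and inversional sites in Ku70-/- cells, Igkv4-69 and Igkv8-19 had some of the largest rises in use in Ku70-/- cells, and the 3 Igkv3 genes lie next to Jκ.
Jκ1, chr6:70672517-70672555, minus strand: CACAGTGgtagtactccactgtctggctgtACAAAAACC
Igkv1-135, chr6:67560503-67560530, plus strand: CACAGTGattcagacccgaACAAAAACT
Igkv12-44, chr6:69764597-69764624, minus strand: CACAGTGattcaagccatgACATAAACC
Igkv4-69, chr6:69233760-69233787, minus strand: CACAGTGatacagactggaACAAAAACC
Igkv8-19, chr6:70290842-70290869, minus strand: CACAGTGcttcagcctcctACACAAACC
Igkv3-7, chr6:70558031-70558058, plus strand: CACAGTGctccagggctgaACAAAAACC
Igkv3-2, chr6:70649062-70649089, plus strand: CACAGTGctccagggctgaACAAAAACC
Igkv3-1, chr6:70654172-70654199, plus strand: CACAGTGctccagggctgaACAAAAACC
Each Vκ signal begins at the base next to the annotated gene, and the bait ends at the base before Igkj1 (chr6:70672556-70672593). All 8 heptamers are identical, and Igkv3-7, Igkv3-2 and Igkv3-1 share the whole signal sequence.

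Each list came from 500000 read pairs and keeps its PCR copies. The WT libraries held 145581, 130487 and 133629 junctions, and the Ku70-/- libraries held 117582, 116039 and 124915. V-J Eff, the percentage of read pairs with a junction no more than 200 bp from any Vκ break site, was 27.4%, 24.3% and 24.9% in WT cells and 17.2%, 17.1% and 18.7% in Ku70-/- cells. The groups did not overlap. The mean of 25.5% ± 1.62 in WT cells against 17.7% ± 0.890 in Ku70-/- cells (SD, n = 3 each) meant that WT cells gave 1.45 times as many Vκ junctions (exact two-sided permutation test over libraries, p = 0.1). With 3 libraries against 3, this is the smallest p the test can give. It was reached in 20 of the 21 comparisons of single values, and over these the Benjamini-Hochberg adjusted values ran from 0.105 to 0.3. When junctions that matched in both ends, prey strand and overlap or insertion length were taken as copies and counted once, the order turned: WT libraries held 1198, 1025 and 1180 distinct Vκ junctions and Ku70-/- libraries 7500, 5744 and 10971. In this count all intact signal joints at a site merge into 1.

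With DMSO, V-J Eff was 65.8% ± 1.53 (SD, n = 3) in WT cells and 28.8% ± 0.695 (SD, n = 3) in Ku70-/- cells, a ratio of 2.28, and with L67 it was 60.6% ± 3.33 and 29.2% ± 1.25 (SD, n = 3 each), a ratio of 2.07. The genotype difference (Ku70-/- minus WT) was -7.87 percentage points with L82-G17 and -37.0 with DMSO, 29.1 points apart (SE 1.44). Permuting the treatments exactly within each genotype, a test that assumes no effect of treatment within a genotype, gave p = 0.1, where 0.005 is the smallest p possible. On the log2 scale the differences were 0.66 apart (SE 0.07, p = 0.405 by the same exact permutation). V-J Eff fell with L82-G17 in both genotypes, which goes against that assumption and widens the permuted spread, so that these p-values say little about the 2 differences; they were large beside their SE. With distinct junctions, of which Ku70-/- cells had more, the log2 differences were 2.78 with L82-G17 and 1.43 with DMSO, 1.35 apart (SE 1.26, exact permutation p = 0.32). The first Ku70-/- DMSO library held 954 distinct Vκ junctions against 13337 and 10693 in the others, which lowered the DMSO difference.

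**Figure D1:**
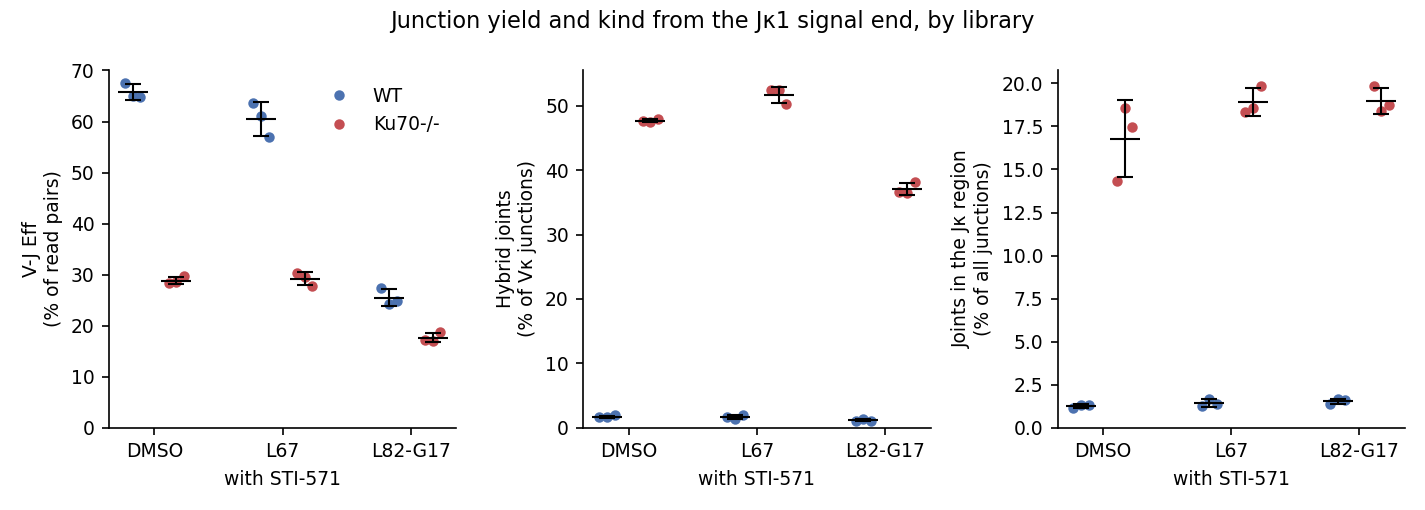
V-J Eff (% of read pairs), hybrid joints (% of Vκ junctions) and joints in the Jκ region (% of all junctions) are plotted for WT (blue) and Ku70-/- (red) libraries with STI-571 and DMSO, L67 or L82-G17; points are libraries and bars show mean and SD of 3. With L82-G17 the WT libraries sit between 24.3% and 27.4% V-J Eff, above all 3 Ku70-/- libraries, while hybrid and Jκ region joints are higher in Ku70-/- cells under every treatment.

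Joints within the Jκ region made up a larger share of Ku70-/- junctions. Vκ sites took 94.0%, 93.2% and 93.1% of WT junctions and 73.1%, 73.7% and 74.8% of Ku70-/- junctions. Of distinct junctions, Vκ sites took 73.5%, 73.7% and 71.3% in WT and 74.8%, 72.5% and 77.8% in Ku70-/- libraries, so that with copies counted once the groups overlapped and the order of the means turned (exact permutation p = 0.3). Merging of identical joints, in WT cells mostly intact signal joints, cut the totals to 1631, 1391 and 1655 WT and 10028, 7925 and 14094 Ku70-/- junctions. Shares of distinct junctions in this paragraph rest on these totals. The Jκ region (within 2 kb of the bait break) took 1.39%, 1.66% and 1.60% of WT junctions and 19.8%, 18.4% and 18.7% of Ku70-/- junctions. Every Ku70-/- library exceeded every WT library, with means of 19.0% ± 0.751 and 1.55% ± 0.141 (SD, n = 3 each; exact permutation p = 0.1). These means differed 12.3-fold. Of distinct junctions the region took 16.9%, 18.8% and 14.5% in Ku70-/- and 8.71%, 9.20% and 9.43% in WT libraries, a ratio of 1.83. Most of these Ku70-/- joints fused the bait to the Jκ1 coding end from which RAG1/2 had cut it. Within 150 bp of its break, that end took 71.8%, 72.9% and 71.0% of the Ku70-/- joints in the region and 30.4%, 29.2% and 42.0% of the WT joints. The coding ends of Jκ2 were joined 1578, 1725 and 1524 times in Ku70-/- libraries and 28, 11 and 38 times in WT libraries. Jκ3, known as a nonfunctional segment in mice, had 121, 219 and 204 coding end joints in Ku70-/- libraries and 0 in each WT library, which allows up to 3 per library. At Jκ5 the groups overlapped, with 446, 561 and 656 coding end joints in Ku70-/- libraries and 749, 600 and 556 in WT libraries. The rest of chromosome 6, outside the Vκ sites and the Jκ region, took 6.13%, 6.47% and 5.48% of Ku70-/- junctions and 4.45%, 5.001% and 5.11% of WT junctions, without overlap (exact permutation p = 0.1). Of this, positions in the Vκ region away from the sites took 2.06% ± 0.137 against 0.980% ± 0.196, and the remainder, where the groups overlapped, 3.97% ± 0.366 against 3.87% ± 0.319 (SD, n = 3 each). With copies counted once the order of the shares turned, to 6.71%, 7.08% and 6.26% in Ku70-/- and 16.4%, 14.8% and 17.3% in WT libraries for the whole of it. The numbers of distinct junctions did not turn. Away from the sites in the Vκ region they were 237, 198 and 331 in Ku70-/- and 121, 84 and 137 in WT libraries. In the remainder they were 436, 363 and 551 against 146, 122 and 149.

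Signal joints of WT cells were intact and those of Ku70-/- cells were trimmed at both ends. An intact signal joint, with the heptamers fused and no base lost or added, made up 95.9%, 95.6% and 95.4% of SE-SE joints in WT libraries and 1.83%, 2.24% and 1.60% in Ku70-/- libraries. The means of 95.6% ± 0.238 and 1.89% ± 0.328 (SD, n = 3 each) differed by 93.7 points in size, far beyond the spread of either group (exact permutation p = 0.1). Of distinct SE-SE joints, where all intact joints at a site merge into 1, they made up 11.7%, 13.1% and 12.2% in WT and 0.768%, 1.005% and 0.739% in Ku70-/- libraries, 11.5 points apart in size. Both ends had lost bases in 83.6% ± 1.18 (SD, n = 3) of Ku70-/- SE-SE joints and 0.470% ± 0.0414 (SD, n = 3) of WT SE-SE joints. The most frequent SE-SE joints at Igkv1-135 show the change, in read sequence with the bait first and what is left of the heptamers in capitals.
WT, most frequent: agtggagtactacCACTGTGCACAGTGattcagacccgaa
Ku70-/-, most frequent: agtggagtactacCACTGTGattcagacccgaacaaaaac
Ku70-/-, the third most frequent: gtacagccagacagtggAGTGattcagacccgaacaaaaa
The first, an intact signal joint, made up 95.3%, 94.1% and 94.7% of the SE-SE joints at this site in WT libraries and 0.606%, 4.72% and 2.07% in Ku70-/- libraries, where it ranked second. The second joint had lost no base of the bait and 4 bases of the prey at an overlap of 3 bp, and made up 1.97%, 2.81% and 3.64% in Ku70-/- libraries. The last had lost 12 bases of the bait and 3 of the prey, also at an overlap of 3 bp, and made up 1.30%, 4.21% and 0.194%. No structure dominated the Ku70-/- joints at Igkv1-135, which took 523 different forms over the 3 libraries against 41 in WT libraries.

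The bait end was whole in 96.8%, 96.6% and 96.3% of WT Vκ junctions and in 7.59%, 7.92% and 7.26% of Ku70-/- Vκ junctions. The median bait end of Ku70-/- junctions had lost 13, 12 and 13 bases, against 0 in each WT library. Losses of 11 to 20 bp were found in 28.9%, 27.9% and 30.3% of Ku70-/- Vκ junctions, and of 21 to 50 bp in 32.0%, 30.2% and 31.3%. Of distinct Vκ junctions, where intact signal joints at a site merge, the bait end was whole in 47.5%, 49.0% and 47.3% in WT libraries. In Ku70-/- libraries it was whole in 5.81%, 6.13% and 5.69% of them. The lists hold no Ku70-/- Vκ junction with more than 43 bases lost from the bait, so that deeper resection of this end was not visible. Prey losses were bounded by the window of 200 bp around each site, beyond which a junction did not count as a Vκ junction. Of prey junctions within 100 bp of the break site, 99.8%, 99.7% and 99.7% fell within 10 bp of it in WT libraries and 42.7%, 45.2% and 42.1% in Ku70-/- libraries, with means of 99.7% ± 0.0410 and 43.3% ± 1.63 (SD, n = 3 each; exact permutation p = 0.1). Prey losses over 50 bp were found in 4.83%, 5.52% and 4.77% of Ku70-/- signal preys and in 0.0473%, 0.00667% and 0.0504% of WT signal preys. Coding ends were trimmed further than signal ends in Ku70-/- cells: the median loss was 16, 18 and 17 bases at coding preys and 12, 11 and 12 at signal preys. The few coding preys of WT libraries had lost a median of 2, 1 and 3 bases.

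**Figure D2:**
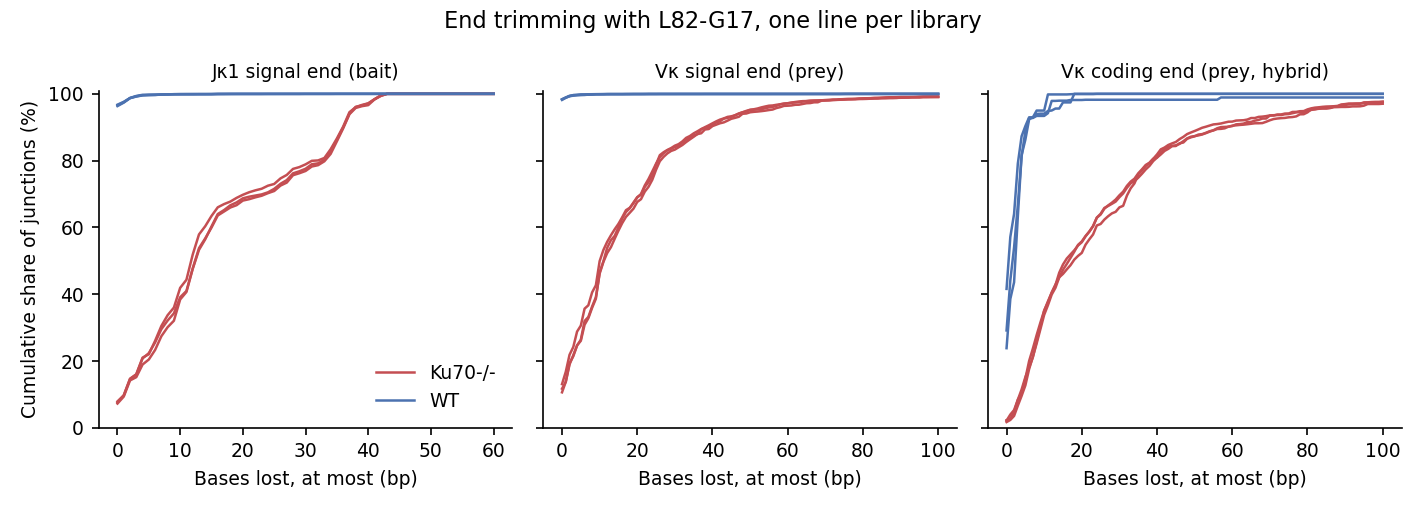
The cumulative share of Vκ junctions (%) is plotted against the bases lost (bp) from the Jκ1 signal end, from Vκ signal ends and from Vκ coding ends in hybrid joints, with one line for each L82-G17 library. WT lines (blue) start above 96% at 0 bases for both signal ends, whereas Ku70-/- lines (red) start near 8% for the bait and rise slowly with the bases lost; the bait curve ends at 43 bp.

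Prey trimming differed between the genotypes by more with L82-G17 than with DMSO in these libraries. Here and below, p-values for changes against DMSO or L67 were not adjusted for the number of measures compared. With DMSO 53.2% ± 2.55 (SD, n = 3) of Ku70-/- prey junctions fell within 10 bp, and the genotype difference was -56.4 points with L82-G17 against -46.5 with DMSO, -9.93 points apart (SE 1.75, exact permutation within genotype p = 0.035). The share of intact signal joints in Ku70-/- cells with DMSO was 9.93%, 3.45% and 3.32%, and the genotype difference moved by -3.89 points (SE 2.20, exact permutation within genotype p = 0.02). Leaving out any 1 Ku70-/- L82-G17 library kept the change at -4.06 to -3.74 points, but p was then 0.215 or more (exact permutation). With distinct junctions the change was -4.62 points (exact permutation p = 0.01). For prey trimming p rose to 0.05 without WT DMSO replicate 1 (exact permutation). The first of these DMSO libraries stood apart, with 954 distinct Vκ junctions against 13337 and 10693 in the others. Without it the differences were -8.46 points (p = 0.035) for prey trimming and -1.70 points (p = 0.02) for intact signal joints, by the same exact permutation.

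Nearly all WT junctions were direct, and close to 1 in 2 Ku70-/- junctions held an overlap. Direct joints, without overlap or insertion, made up 96.2%, 95.5% and 95.8% of WT Vκ junctions and 53.2%, 51% and 52.5% of Ku70-/- Vκ junctions. An overlap of 1 bp was found in 1.72%, 1.98% and 1.76% of WT junctions and 24.6%, 23.01% and 23.3% of Ku70-/- junctions. Of SE-SE joints with this overlap, 82.3% ± 3.91 in WT and 0.867% ± 0.716 in Ku70-/- libraries kept both signal ends whole (SD, n = 3 each). MH over 1 bp, the class taken as microhomology-mediated, was found in 0.649%, 0.756% and 0.597% of WT junctions and 20.5%, 24.7% and 22.6% of Ku70-/- junctions. The groups stood apart in all 3 classes (exact permutation p = 0.1 each), and the mean share with MH over 1 bp was 33.9 times as high in Ku70-/- cells. Of distinct junctions MH over 1 bp made up 21%, 21.4% and 20.5% in Ku70-/- and 9.87%, 8.20% and 8.47% in WT libraries, a ratio of 2.37. Longer overlaps were rarer. In Ku70-/- libraries 2 bp made up 10.4% ± 0.700, 3 bp 5.65% ± 0.709, 4 bp 2.47% ± 0.241 and 5 bp or more 4.06% ± 0.837 of Vκ junctions (SD, n = 3 each). Insertions overlapped between the groups, at 1.67%, 1.28% and 1.53% in Ku70-/- libraries and 1.47%, 1.77% and 1.82% in WT libraries, and a difference between them was not shown (exact permutation p = 0.3). Insertions of 1 bp were lower in every Ku70-/- library, at 0.459% ± 0.105 against 0.928% ± 0.154 (SD, n = 3 each). Insertions of 4 bp or more made up 0.576% ± 0.0753 of Ku70-/- and 0.0882% ± 0.0124 of WT junctions (SD, n = 3 each), but the direction turned with copies counted once, to 3.59%, 2.96% and 3.72% in Ku70-/- and 6.77%, 7.81% and 6.19% in WT libraries.

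**Figure D3:**
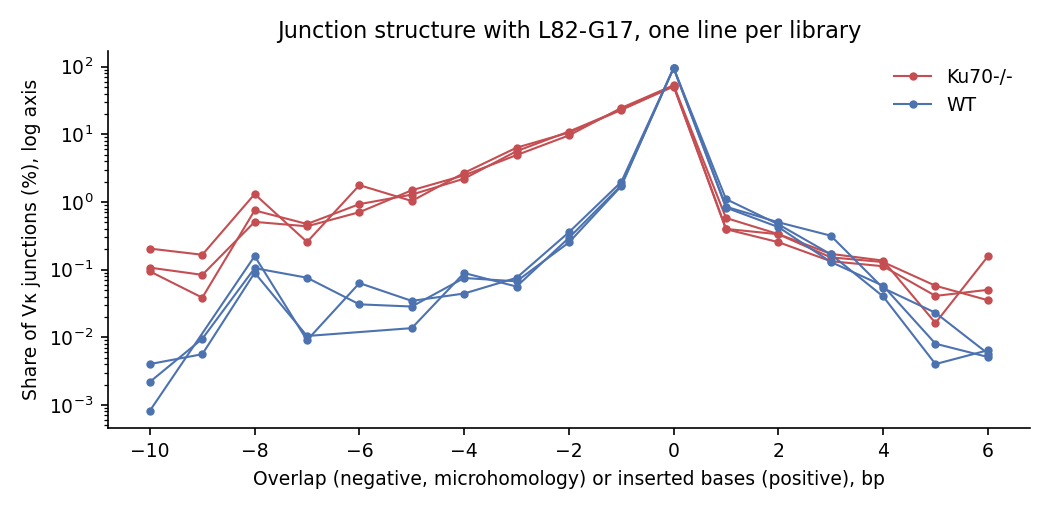
The share of Vκ junctions (%, log axis) is plotted against the overlap (negative) or inserted bases (positive, bp), with one line for each L82-G17 library. The Ku70-/- lines (red) lie above the WT lines (blue) at every plotted overlap from 1 to 10 bp, and below them at insertions of 1 and 2 bp.

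Hybrid joints did not follow this order. Within them, direct joints were more frequent in Ku70-/- libraries (52.6%, 49.4% and 50.5%) than in WT libraries (26.9%, 23.9% and 22.2%). MH over 1 bp overlapped between the groups there, at 19.4%, 22.97% and 21.3% in Ku70-/- and 31.5%, 26.3% and 22.2% in WT libraries. Insertions made up 2.88%, 1.95% and 2.57% of Ku70-/- hybrid joints and 13.96%, 11.4% and 17.1% of WT hybrid joints. The WT values rest on 1468, 1678 and 1363 hybrid joints with PCR copies, from 156, 114 and 145 distinct ones. Counting distinct junctions once also turned the order of direct joints, to 47.2%, 46.0% and 48.7% in Ku70-/- and 35.9%, 34.3% and 39.3% in WT libraries, with insertions at 45.9% or more of distinct WT junctions and 12.9% or less of Ku70-/- ones. With DMSO 58.2% ± 2.06 (SD, n = 3) of Ku70-/- junctions were direct, and the genotype difference in direct joints was -43.6 points with L82-G17 and -36.5 with DMSO, -7.05 points apart (SE 1.40, exact permutation within genotype p = 0.005). With distinct junctions this shrank to -0.29 points (SE 6.07, exact permutation p = 0.985). In that count direct joints made up 31.4%, 49.4% and 48.1% in Ku70-/- DMSO libraries, and the first rests on 954 distinct Vκ junctions. Set against L67, the change with distinct junctions was -5.88 points (SE 1.74, exact permutation within genotype p = 0.005). Against DMSO, with all junctions, the difference in MH over 1 bp moved by 1.79 points (SE 1.41, exact permutation p = 0.135).

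Hybrid joints made up more than 1 in 3 Ku70-/- Vκ junctions. Their share was 36.6%, 36.5% and 38.2% in Ku70-/- libraries and 1.07%, 1.38% and 1.10% in WT libraries, and the means of 37.1% ± 0.952 and 1.18% ± 0.171 (SD, n = 3 each) differed 31.4-fold (exact permutation p = 0.1). Of distinct Vκ junctions, hybrid joints made up 37.5%, 35.9% and 39.6% in Ku70-/- and 13.02%, 11.1% and 12.3% in WT libraries, a ratio of 3.10. Ku70-/- cells made 1.73, 1.74 and 1.62 SE-SE joints for each hybrid joint and WT cells 92.2, 71.5 and 90.3. With DMSO the hybrid share was 47.7% ± 0.230 in Ku70-/- cells and 1.72% ± 0.177 in WT cells (SD, n = 3 each). The genotype difference was thus 35.9 points with L82-G17 and 45.9 with DMSO (-10.03 apart, SE 0.583, exact permutation within genotype p = 0.1, a test that again assumes no effect of treatment although the share fell in both genotypes), and on the log2 scale of SE-SE joints per hybrid joint it moved by 0.07 (SE 0.15, p = 0.835 by the same exact permutation).

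Hybrid joints in Ku70-/- cells were uneven between the orientations of the Vκ site. At a deletional site, where Vκ and Jκ point the same way, the SE-SE joint closes an excision circle and a hybrid joint inverts the DNA in between. At an inversional site the SE-SE joint lies in an inversion and the hybrid joint closes a circle. In Ku70-/- libraries hybrid joints made up 46.8%, 46.1% and 47.4% of junctions at inversional sites and 18.6%, 19.6% and 20.2% at deletional sites. In WT libraries they made up 1.09%, 1.62% and 1.06% at inversional and 1.05%, 1.08% and 1.14% at deletional sites. The share was higher at inversional sites in each Ku70-/- library. With DMSO the Ku70-/- shares were 60.0% ± 2.58 at inversional and 22.4% ± 6.97 at deletional sites, and with L67 62.3% ± 1.32 and 30.4% ± 0.767 (SD, n = 3 each). The DMSO library that stood apart had the lowest deletional share, 14.4%. Joints that close a circle, of either kind, were 59.3%, 58.5% and 58.4% of Ku70-/- Vκ junctions and 45.7%, 45.1% and 45.8% of WT Vκ junctions (exact permutation p = 0.1). Among SE-SE joints alone the deletional sites held 45.3% ± 1.46 in Ku70-/- and 45.4% ± 0.508 in WT libraries (SD, n = 3 each), and the groups overlapped.

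**Figure D4:**
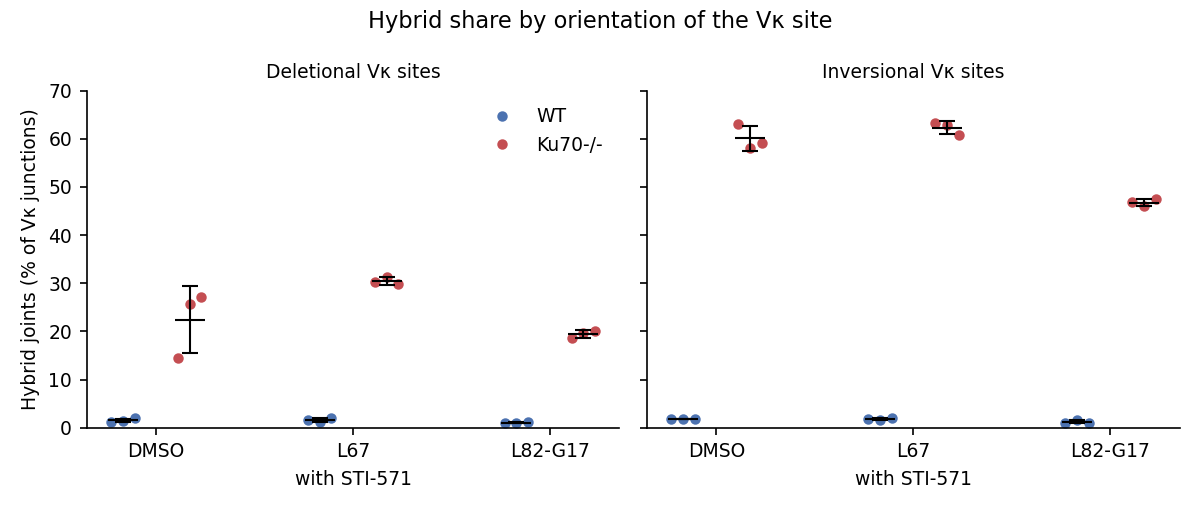
Hybrid joints (% of Vκ junctions) at deletional and inversional Vκ sites are plotted for WT (blue) and Ku70-/- (red) libraries with STI-571 and DMSO, L67 or L82-G17; points are libraries and bars show mean and SD of 3. The Ku70-/- libraries with L82-G17 lie between 46.1% and 47.4% at inversional sites and between 18.6% and 20.2% at deletional sites.

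The contrast was seen from site to site with much scatter. Over 30 deletional sites with at least 300 junctions in each genotype, the mean hybrid share in Ku70-/- libraries had a median of 22.1% (2.00% to 68.7%), and over 53 inversional sites a median of 47.4% (12.2% to 74.9%). The WT medians over the same sites were 0.861% and 0.655%. Igkv1-135, the most used Ku70-/- site and a deletional one, stood at 12.8%, 27.1% and 16.2%, and Igkv16-104, also deletional, at 9.91%, 8.10% and 11.99%. Among inversional sites Igkv12-44 stood at 44.3%, 40.2% and 45.4%, while Igkv8-16 had the lowest share, at 10.9%, 5.73% and 19.8%. A hybrid joint shared by the 3 Ku70-/- libraries at Igkv12-44, the second most frequent there, is shown as its read sequence with the bait first; none of its bases is left from a heptamer.
Igkv12-44, Ku70-/- hybrid joint: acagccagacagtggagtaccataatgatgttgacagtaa
It had lost 10 bases of the bait and 3 of the Vκ coding end at an overlap of 7 bp, and made up 4.63%, 6.996% and 3.77% of the hybrid joints at the site.

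Vκ usage was compared over 138 break sites, 63 deletional and 75 inversional, of which 93 lie beside an annotated Vκ gene. Of these, 107 had a mean of at least 50 junctions and were tested, and 47 (43.9%) differed at an adjusted p under 0.05 (limma on the log2 share of Vκ junctions after adding 1 junction to each count, Benjamini-Hochberg adjusted). Usage was higher in Ku70-/- cells at 27 sites (25.2%) and lower at 20 (18.7%). Without WT replicate 1 the higher count dropped to 17 (limma, adjusted p under 0.05). Of 38 sites testable with distinct junctions, 11 rose and 1 fell (limma, adjusted p under 0.05). Distinct Vκ junctions numbered 1198, 1025 and 1180 in WT and 7500, 5744 and 10971 in Ku70-/- libraries. These 38 sites thus reached the minimum mainly through Ku70-/- counts, which favors rises, so that their split cannot show a direction. With all junctions the 107 tested sites split by orientation. Of 62 inversional sites 22 rose and 6 fell, with a median log2 difference of 0.26. Of 45 deletional sites 5 rose and 14 fell, with a median of -0.34, against 0.07 over all sites tested. All sites were placed in WT libraries, and 8 deletional sites reached 50 junctions in the WT mean alone, 6 of which fell. Of the 99 sites with a mean of at least 50 in both genotypes, 27 rose and 14 fell. Among these 22 of 62 inversional sites rose and 6 fell (median 0.26), and 5 of 37 deletional sites rose and 8 fell (median -0.21). Deletional sites took 45.6%, 44.7% and 45.8% of Vκ junctions in WT libraries and 36.3%, 36.1% and 33.8% in Ku70-/- libraries (exact permutation p = 0.1). Among SE-SE joints alone the groups overlapped in this share, with means of 45.3% in Ku70-/- and 45.4% in WT libraries. Among hybrid joints the means were 18.6% and 42.5%, without overlap, so that the difference in this share lay in the hybrid joints. Where only signal preys were counted, 12 of 105 tested sites rose (11.4%) and 16 fell (15.2%).

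The Igkv4 family, inversional genes in the middle of the locus, had 22 tested sites, of which 10 rose, 2 fell and 10 did not pass the test. Its count is read against 22 of the 62 inversional sites and 25.2% of all tested sites that rose, and 18.7% of all that fell. Igkv4-69 had 0.0782%, 0.0148% and 0.0699% of Vκ junctions in WT libraries and 0.788%, 0.711% and 0.921% in Ku70-/- libraries (log2 difference 4.18, SE 0.65, limma adjusted p = 0.00412). Its second WT library held only 18 junctions there, and without that library the log2 difference was 3.43. Igkv4-50 rose from 1.34% ± 0.277 to 3.24% ± 0.275 (SD, n = 3 each; log2 1.29, SE 0.19, limma adjusted p = 0.0040) and was the fourth most used Ku70-/- site, while Igkv4-58 fell (log2 -1.29). In the Igkv8 family, of which 7 of 8 tested sites are inversional, 4 rose and none fell, again beside 25.2% and 18.7% of all tested sites. Igkv8-19 had 0.0680%, 0.0617% and 0.0410% in WT and 0.425%, 0.720% and 0.653% in Ku70-/- libraries (log2 3.38, SE 0.29, limma adjusted p = 0.000638). Its Ku70-/- junctions were mostly hybrid, 286, 468 and 438 beside 79, 147 and 172 SE-SE joints. In WT libraries too it held 46, 73 and 27 hybrid joints beside 47, 2 and 24 SE-SE joints, although 1.18% of all WT Vκ junctions were hybrid. Igkv8-28 had the largest fitted rise (log2 4.53, SE 1.26, limma adjusted p = 0.0329), on a WT library with only 3 junctions there. Without that library it was 3.09, without either other WT library 5.25 and 5.24, and without Ku70-/- replicate 1 or 3 it no longer passed (log2 4.23 and 4.44, limma adjusted p = 0.0878 and 0.0911). Other large rises were at Igkv4-70 (log2 2.91), Igkv17-127 (2.26), Igkv9-124 (2.26), Igkv14-111 (2.02) and Igkv17-121 (1.43). Leaving out 1 library ended the call of Igkv9-124 (WT replicate 1 or 3, or Ku70-/- replicate 1 or 3, limma adjusted p = 0.0960 to 0.105) and of Igkv17-121 (any WT replicate or Ku70-/- replicate 3, limma adjusted p = 0.0545 to 0.0740). Without Ku70-/- replicate 2 Igkv9-124 stood at log2 2.86. With signal preys alone Igkv4-69, Igkv4-70, Igkv8-28, Igkv9-124 and Igkv17-127 did not pass. All 8 of these sites were rarely used in WT cells, at a mean under 0.2% of Vκ junctions. The preferred sites were largely shared. Igkv1-135 (4.63% ± 0.342 in WT, 5.69% ± 0.454 in Ku70-/-), Igkv16-104 (4.75% ± 0.296 and 3.77% ± 0.0732) and Igkv12-44 (3.58% ± 0.273 and 3.77% ± 0.534; SD, n = 3 each) were among the 5 most used in both, and none of the 3 passed the test. Igkv6-32 rose (log2 0.57) but lost its call without any 1 library other than Ku70-/- replicate 2 (limma adjusted p = 0.0657 to 0.121), and Igkv8-16 stood at log2 -0.31, which did not pass.

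The Igkv3 genes next to Jκ fell, and most of them were absent from the Ku70-/- lists. Of 8 Igkv3 sites 7 fell, where 18.7% of all tested sites did, but 4 of the 7 (Igkv3-2, Igkv3-3, Igkv3-4 and Igkv3-7) reached the minimum through their WT counts alone and could only fall. Igkv3-2 had 2.15%, 1.59% and 2.14% of Vκ junctions in WT libraries and 0 of 264781 over the 3 Ku70-/- libraries, at least 1730-fold lower when set against 3 junctions over the group. On the same footing Igkv3-7 (1.74% ± 0.0379 in WT, SD, n = 3) was at least 1535-fold lower, Igkv3-3 at least 145-fold, and a site without an annotated gene at chr6:70613890 at least 523-fold. Igkv3-4 had 1 Ku70-/- junction against a WT mean of 0.812%, 2151-fold lower (95% counting interval 386 to 84949). The bounds and this interval take all 264781 junctions as independent, although these include PCR copies. Distinct Ku70-/- Vκ junctions numbered 7500, 5744 and 10971, so that bounds for independent joining events would be lower. These 5 neighboring sites span 91.0 kb and took 5.27% ± 0.524 (SD, n = 3) of WT Vκ junctions. They held 6 of 880618 Vκ junctions in the 9 Ku70-/- signal end libraries without L82-G17 (DMSO, L67 and cycling cells, 3 each). Igkv3-1, closer to Jκ1 and with the same signal sequence as Igkv3-2, had 0.126%, 0.204% and 0.203% in Ku70-/- and 0.442%, 0.444% and 0.384% in WT libraries (log2 -1.28, SE 0.23, limma adjusted p = 0.00757), and Igkv3-10, farther away, 1.02%, 1.53% and 1.33% against 4.05%, 3.27% and 3.77% (log2 -1.53, SE 0.20, limma adjusted p = 0.00316). A loss of this DNA from the Ku70-/- clone was not tested.

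Of 20 tested sites without an annotated gene 6 fell, 1 rose and 13 did not pass, beside 18.7% and 25.2% of all tested sites. Of these 6, chr6:70613890 and chr6:68929658 reached the minimum through their WT counts alone and could only fall. The 18.7% includes such sites too, and of the 99 sites that reached the minimum in both genotypes 14 fell. Among those that fell, chr6:68880262 stood at log2 -1.81 and chr6:68262354 at -1.53. The first lost its call without WT replicate 1 or 2 (limma adjusted p = 0.0531 and 0.0620), and the second without any 1 WT library or Ku70-/- replicate 3 (limma adjusted p = 0.0522 to 0.0844). Neither passed with signal preys alone. At chr6:68929658 the libraries held 140, 78 and 82 WT and 0, 11 and 1 Ku70-/- junctions, so that it was tested through its WT counts alone. When the Vκ region was cut into 6 equal windows, the one closest to Jκ took 23.05% ± 0.653 of WT and 15.3% ± 0.638 of Ku70-/- Vκ junctions, and the next one 19.6% ± 0.170 and 27.2% ± 0.206 (SD, n = 3 each; exact permutation p = 0.1 for both). Leaving out the 5 sites above, an alternative chosen after seeing the data, gave 18.8% ± 0.295 and 15.3% ± 0.639 in the closest window, with a deletional share of 42.3% ± 0.306 in WT and 35.4% ± 1.36 in Ku70-/- libraries (SD, n = 3 each), still without overlap. The deletional share of SE-SE joints was then higher in Ku70-/- (45.3% ± 1.46) than in WT libraries (42.3% ± 0.213; SD, n = 3 each), and hybrid joints at deletional sites stayed at 19.5% ± 0.783 (SD, n = 3).

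**Figure D5:**
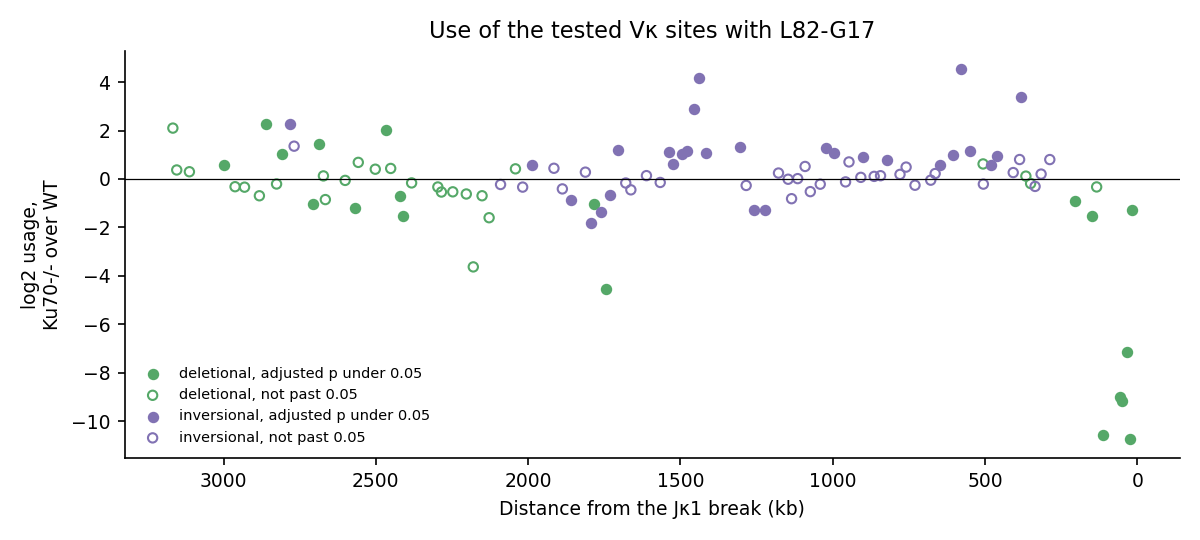
The log2 ratio of usage (Ku70-/- over WT, value of 1 junction added) is plotted against the distance from the Jκ1 break (kb) for the 107 tested sites with L82-G17; green marks deletional and purple inversional sites, and filled points passed an adjusted p of 0.05. The 5 sites at the lower right, at -7.14 to -10.74, are the Jκ-proximal sites with 0 or 1 Ku70-/- junction in all.

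Junctions outside chromosome 6, the translocations, were more numerous in Ku70-/- libraries and made up a larger share of all junctions, while their shares of distinct junctions overlapped. They numbered 1134, 1699 and 1277 in Ku70-/- libraries and 252, 172 and 277 in WT libraries, 0.964%, 1.46% and 1.02% against 0.173%, 0.132% and 0.207% of all junctions. The difference was 2.56 on the log2 scale (exact permutation p = 0.1), and the groups did not overlap. They came from few joining events. Distinct translocations numbered 164, 129 and 200 in Ku70-/- and 24, 32 and 33 in WT libraries, again without overlap (exact permutation p = 0.1). They made up 1.64%, 1.63% and 1.42% against 1.47%, 2.30% and 1.99% of all distinct junctions. In these shares the groups overlapped and the order of the means turned (exact permutation p = 0.3). The totals beneath them had shrunk to 10028, 7925 and 14094 Ku70-/- and 1631, 1391 and 1655 WT junctions. Intact signal joints merge in that count, so that these shares cannot show whether the excess of translocations remains. With DMSO the log2 difference was 2.99, -0.43 apart (SE 0.51, exact permutation within genotype p = 0.52).

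Windows around the antigen receptor loci, where RAG1/2 could cut a partner, held 25.2%, 15.1% and 20.2% of Ku70-/- and 81.3%, 41.9% and 55.6% of WT translocations. Of distinct translocations they held 13.4%, 7.75% and 15.5% in Ku70-/- and 45.8%, 31.25% and 48.5% in WT libraries. At Tcra/Tcrd (chromosome 14) WT libraries had 185, 52 and 68 junctions, from 9, 7 and 13 distinct ones, and Ku70-/- libraries 4, 15 and 8, from 1 each. At Igl (chromosome 16), the other light chain locus, Ku70-/- libraries had 267, 187 and 216 junctions, from 18, 7 and 27 distinct ones, and WT libraries 16, 0 and 35, from 1, 0 and 1. As a share of translocations, Tcra/Tcrd took 73.4%, 30.2% and 24.5% in WT and 0.353%, 0.883% and 0.626% in Ku70-/- libraries (exact permutation p = 0.1). Igl took 6.35%, 0% and 12.6% in WT and 23.5%, 11.01% and 16.9% in Ku70-/- libraries, and there the groups overlapped (exact permutation p = 0.2). Of distinct translocations Igl took 4.17%, 0% and 3.03% in WT and 10.98%, 5.43% and 13.5% in Ku70-/- libraries, without overlap (exact permutation p = 0.1). Iglv1 alone took 91, 143 and 47 of the Ku70-/- junctions within 200 bp of its break and 0 in each WT library. The Igh window (chromosome 12) held 15, 55 and 34 Ku70-/- and 4, 20 and 51 WT junctions, which overlapped, and the Tcrg window (chromosome 13) held 0 in every library. Outside these windows Ku70-/- libraries had 848, 1442 and 1019 junctions (142, 119 and 169 distinct) and WT libraries 47, 100 and 123 (13, 22 and 17 distinct). In the DMSO libraries Tcra/Tcrd had 269, 52 and 27 WT and 0, 18 and 26 Ku70-/- junctions, and Igl 4, 0 and 0 WT and 41, 392 and 389 Ku70-/- junctions. The bait end of translocations was whole in 2.47%, 4.30% and 7.60% of Ku70-/- and 23.02%, 49.4% and 42.2% of WT junctions.

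Each library was read in 2 sequencing runs, told apart by the read names, with 9.66% to 10.4% of a library's junctions in the smaller one. The genotypes did not overlap within either run in V-J Eff (-7.18 and -0.688 points of the full read number in the larger and smaller run), hybrid joints (35.9 and 35.7), prey junctions within 10 bp (-56.4 and -56.7), intact signal joints (-93.7 in both), direct joints (-43.6 and -43.7), MH over 1 bp (21.9 in both), Jκ region joints (17.5 and 17.4) and translocations (2.55 and 2.67 on the log2 scale).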

How the data were processed

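Libraries were made by HTGTS-JoinT-seq, which reads from a bait end into the DNA joined to it. The authors reduced each library to 500000 read pairs, aligned them to mm9 (Bowtie2 per the submitters' processing notes, version not given in the sources used here) without removing duplicates, and added junctions in the bait region. The deposited lists hold 1 junction per row with other values (positions, strands, read coordinates and bases), from which junctions were counted here. The mm9 genome and GENCODE vM1 genes gave heptamers and gene names. A Vκ break site was a position at chr6 67.5 to 70.66 Mb with at least 30 junctions over the STI-571-treated WT signal end libraries, no larger one within 50 bp, and CAC next to it. The 110 positions without CAC were left out. A prey on the strand of the signal end was SE-SE, the other hybrid. Lost bases were counted from the break, and overlaps and insertions up to 20 bp. Receptor windows were the annotated segments and 100 kb on either side.

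Single values were compared by exact two-sided permutation over libraries (Python 3.11.15, scipy 1.17.1), site usage by limma 3.58.1 (R 4.3.3), whose script was tested on simulated data. Named sites were, among sites past the threshold without overlap, the 8 largest rises and falls, the 5 most used sites of each genotype, and the Jκ-proximal Igkv3 genes; Igkv4-58 was named after its value was seen. Members, lists and tests were chosen with earlier results of these data known. Replicates were numbered in accession order. Binomial 95% (Wilson) intervals of Vκ shares reach at most 0.335 points on either side, from 85471 or more junctions, and cover counting error only, since PCR copies are not independent. Replicate libraries differed by more than sampling noise (chi-square per degree of freedom 15.9 or more). Coding end lists were not used.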

Additional observations from a re-analysis of the deposited data

Results flagged for a closer look

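In 3 measures the genotype differences with L82-G17 and with DMSO were apart at p under 0.05, by exact permutation of treatments within genotype. These p-values were not adjusted for the number of measures compared with DMSO. The test assumes no effect of treatment within a genotype, and in these 3 the WT means moved little. For direct joints the WT libraries still did not overlap between the treatments, which goes against that assumption. They stood at 96.2%, 95.5% and 95.8% with L82-G17 and at 95.2%, 94.3% and 94.7% with DMSO. V-J Eff (29.1 points, SE 1.44) and hybrid joints (-10.03 points, SE 0.583) changed by more of their SE, but moved with treatment in both genotypes and did not pass, so that the 3 measures were picked out by the test and not by the size of their change. Prey junctions within 10 bp of the break moved by -9.93 percentage points, intact signal joints by -3.89 points, and direct joints by -7.05 points. In each, the Ku70-/- mean was lower with L82-G17 (43.3% against 53.2%, 1.89% against 5.57%, and 52.3% against 58.2%), while the WT means were 99.7% and 99.7%, 95.6% and 95.4%, and 95.8% and 94.7%. Set against L67 in place of DMSO the differences were -3.20, -1.59 and -5.30 points (exact permutation p = 0.01, 0.005 and 0.005). With distinct junctions the change against DMSO was -0.29 points for direct joints (exact permutation p = 0.985), -8.92 points for prey junctions (exact permutation p = 0.01) and -4.62 points for intact signal joints (exact permutation p = 0.01). In that count direct joints made up 31.4%, 49.4% and 48.1% in Ku70-/- DMSO libraries. Their change against L67 with distinct junctions was -5.88 points (exact permutation p = 0.005). Leaving out any 1 Ku70-/- L82-G17 library kept the change in intact signal joints at -4.06 to -3.74 points with p at 0.215 or more, and for prey junctions p was 0.05 without WT DMSO replicate 1 (exact permutation). The Ku70-/- DMSO mean of intact signal joints rests on libraries at 9.93%, 3.45% and 3.32%, and without the first of these the change was -1.70 points.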

How the results depend on the processing

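Of 267 values recomputed under alternatives for 21 results, 250 counted as unchanged. Single values had to stay on their side of the threshold (no overlap between groups, or p under 0.05 for the comparison with DMSO). They also had to keep their direction where either value passed. Counts of sites had to stay within a fixed ratio of the reported count. Where the groups did not overlap, leaving out 1 library could not change this, so those values were fixed in advance. The larger sequencing run reused most of the same reads. Counting distinct junctions once turned V-J Eff (Ku70-/- minus WT 1.39 points) and direct joints (10.8 points), set insertions apart (-37.0 points), took the change in direct joints against DMSO to -0.29 points (p = 0.985 by exact permutation), and left 11 sites higher and 1 lower. By construction it merges all intact signal joints at a site. The -0.29 points include a Ku70-/- DMSO library with only 954 distinct Vκ junctions. The sites tested with distinct junctions reached the minimum mainly through Ku70-/- counts, which favors rises. Within hybrid joints alone, direct joints (26.5 points) and MH over 1 bp (-5.47 points, groups overlapping) turned and insertions stood apart (-11.7 points). Within SE-SE joints alone insertions also stood apart (-0.620 points). Signal preys alone left 12 sites higher.

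Leaving out each library in turn moved insertions between -0.300 and -0.0836 points, standing apart without WT replicate 1. It moved sites higher in Ku70-/- between 17 (without WT replicate 1) and 27, and sites lower between 15 and 23. The change against DMSO moved between -10.9 and -8.46 points for prey trimming, with an exact permutation p of 0.05 without WT DMSO replicate 1. For intact signal joints it moved between -5.01 and -1.70 points, and p rose to 0.215 or more without any 1 Ku70-/- L82-G17 library (exact permutation). The cause was not tested in these cases. Among named sites 30 recomputed values lost and 3 gained their call, with no change of direction among these. The other libraries, runs, windows and site sets kept their calls.

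No paired analysis was possible because the labels give the libraries no replicate numbers, and numbers in accession order pair nothing. Translocations rest on few distinct junctions (24 to 33 in WT libraries), and bait losses over 43 bases were not visible.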
